A study of Mus musculus with 8 samples.

Results

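Intestinal epithelial cells defend the mucosal surface with secreted proteins and reactive molecules, and 10 genes of that defence were followed: Lyz1, Lyz2, Reg3b, Reg3g, Ang4, Lcn2, Slpi, Pigr, Nos2 and Duox2. Their probes were found by the gene name that the array files give, which returned 11 probes among 39429 (31791 gene names), because Pigr has 2 probes. The cells were IEC10, an immortalized mouse intestinal epithelial line that carries a luciferase reporter for the interferon-stimulated gene Mx2, grown as polarized layers on transwell inserts for 21 days. They were left untreated (control, 2 arrays, replicates 2 and 3), or given IFN-λ2, a type III interferon, at 20 ng/mL (3 arrays), or IFN-β, a type I interferon, at 500 U/mL (3 arrays), in each case for 9 h. All arrays came from this 1 line, which limits the model, and the labels do not say whether replicates were separate cultures, so that p-values measure the spread between these arrays.

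The members act in different ways at the same barrier. Lysozymes (Lyz1, typical of Paneth cells, and Lyz2, typical of macrophages) cut the bacterial cell wall, the Reg3 lectins bind Gram-positive or other bacteria in the mucus, and Ang4 is a secreted ribonuclease of Paneth cells. Lcn2 captures bacterial siderophores and so withholds iron, while Slpi inhibits leukocyte proteases. Pigr carries polymeric IgA from the basolateral to the apical side, Nos2 makes nitric oxide and Duox2 makes hydrogen peroxide at the cell surface.

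Probes are 60 bases long, and the first 30 bases of 4 of them are shown because the results turn on them. Capitals mark unbroken runs of at least 10 purines (A or G).
Lcn2 probe: aaggagcatctggagcctcttcttatttgg
Slpi probe: ttactgttttaccactaacatctccttttg
Pigr probe on chromosome 1: tcatgattttcagatgagaagagatgtttc
Pigr probe on chromosome 14: GAGGAGGAGGAGGAGAAGGAGAAGGAGAAG
On mm9, the Lcn2 probe lies at chr2:32240199-32240258 (minus strand) and the Slpi probe at chr2:164179849-164179908 (minus strand), and the files do not state in which exon or UTR. The first Pigr probe lies at chr1:132748041-132748100 (plus strand). The files place the second at chr14:70241922-70241981 (minus strand), although they name it Pigr as well. That second probe consists of purines alone over all 60 bases, holds 6 different base triplets among its 58 overlapping ones and lists RefSeq accessions of both Pigr and Rhox8, whereas the chromosome 1 probe holds 31 different triplets and lists Pigr alone. A signal on the second probe was therefore not read as a Pigr level.

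Intensities are given in units, the processed signal scaled so that each array's 75th percentile is 1500, with values under 15 set to 15. Each array had between 20991 and 24252 probes that the scanner software called well above background, the dimmest of them at 14.7 to 33.3 units depending on the array, and no probe was saturated. The highest of these limits belonged to IFN-λ2 replicate 2, which also had the fewest probes above background. Usp18, an interferon-stimulated gene used as a check of the treatment, was at 3541 and 4783 units in control arrays, at 54675 to 57840 units with IFN-λ2 and at 46406 to 50964 units with IFN-β, so that each stimulated array stood above both controls. All 11 epithelial markers, among them Epcam, Cdh1 and Krt8, were well above background on all 8 arrays. Of 11 goblet cell markers, Muc2, Tff3, Agr2 and Retnlb were at the floor on all 8 arrays, Spdef was well above background on all 8 (109 to 133 units), and Fcgbp was so on the 3 IFN-λ2 arrays alone. Gfi1 was at the floor on the 5 control and IFN-β arrays and at 19.8, 21.9 and 19.1 units with IFN-λ2, 1 of them well above background. It passed the test by limma against control (adjusted p 0.0109) and against IFN-β (adjusted p 0.0103), at a log2 change of 0.43 in both. Both calls were lost with normexp background correction and with a variance trend (adjusted p 0.0929 to 0.138). At signals this dim, no difference was read from Gfi1. Each slide held 1 replicate number (slide 1 had no control) and each group had its own position on the slide, so that position and treatment cannot be told apart.

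Of the 10 members, Lcn2 and Slpi were higher after IFN-λ2 than in untreated cells, by about 1.5-fold, where 10.1% of all probes tested were higher, and no member passed the test after IFN-β, where 1.42% were higher. Lcn2 after IFN-λ2 also exceeded its level after IFN-β, where 5.64% of all probes were higher. Nos2, Ang4 and the second Pigr probe gave signal in nearly all arrays without a called difference. Reg3b, Reg3g, Duox2 and the chromosome 1 probe of Pigr were not well above background on any array, and the lysozyme probes each were on 1 array.

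Lcn2 was measured on every array. Its level was 44556 and 38969 units in the controls, 61227, 65904 and 61678 units with IFN-λ2, and 45006, 52091 and 44632 units with IFN-β. The IFN-λ2 arrays were the highest and overlapped neither other group, and the 3 IFN-β arrays lay just above both controls. Of all probes tested, 49.6% did not overlap between IFN-λ2 and control, 32.3% between the interferons and 26.3% between IFN-β and control. The group means were 41763 ± 3951 (SD, n = 2), 62936 ± 2580.3 (SD, n = 3) and 47243 ± 4203 units (SD, n = 3). The log2 change with IFN-λ2 was 0.59 (SE 0.10, 1.51-fold), with an adjusted p of 0.00891 by limma with Benjamini-Hochberg adjustment over the 26009 probes tested. With IFN-β it was 0.18 (95% confidence interval -0.06 to 0.42, adjusted p 0.561), and between IFN-λ2 and IFN-β it was 0.42 (SE 0.09, 1.33-fold, adjusted p 0.0301). In the order of levels, IFN-λ2 stood above IFN-β by the test, and the difference between IFN-β and control did not pass it.

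The Lcn2 difference between IFN-λ2 and control was 0.56 on slide 2 and 0.66 on slide 3, and that between the interferons was 0.44, 0.34 and 0.47 on slides 1, 2 and 3. Without control replicate 3 the adjusted p of the change with IFN-λ2 was 0.0551, at a log2 change of 0.50. The call between the interferons was lost when any IFN-λ2 array, IFN-β replicate 1 or IFN-β replicate 3 was left out, with adjusted p between 0.0766 and 0.105 and log2 changes between 0.38 and 0.44.

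Slpi was also measured on every array, at 172 and 168 units in the controls. It reached 265, 290.2 and 256 units with IFN-λ2, and 159.6, 165 and 232 units with IFN-β. The IFN-λ2 arrays overlapped neither other group, and IFN-β replicate 3 stood above the other 2 IFN-β arrays and above both controls. The change with IFN-λ2 was 0.67 on the log2 scale (SE 0.17, 1.59-fold, limma adjusted p 0.0333), and with IFN-β it was 0.11 (95% confidence interval -0.28 to 0.50, adjusted p 0.851). Between IFN-λ2 and IFN-β the change was 0.56 (SE 0.15, adjusted p 0.0564), just outside the threshold of 0.05.

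Several settings moved Slpi across that threshold. With the replicate number as a block, the adjusted p of the change with IFN-λ2 was 0.0657 (log2 change 0.72), and leaving out either control or any IFN-λ2 array gave 0.0688 to 0.137 (log2 changes 0.62 to 0.71). Without IFN-β replicate 3, the difference between the interferons was 0.74 with an adjusted p of 0.00876. Within slides, that difference was 0.73, 0.82 and 0.14, the last on slide 3, and the difference between IFN-λ2 and control was 0.76 on slide 2 and 0.61 on slide 3.

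**Figure D1:**
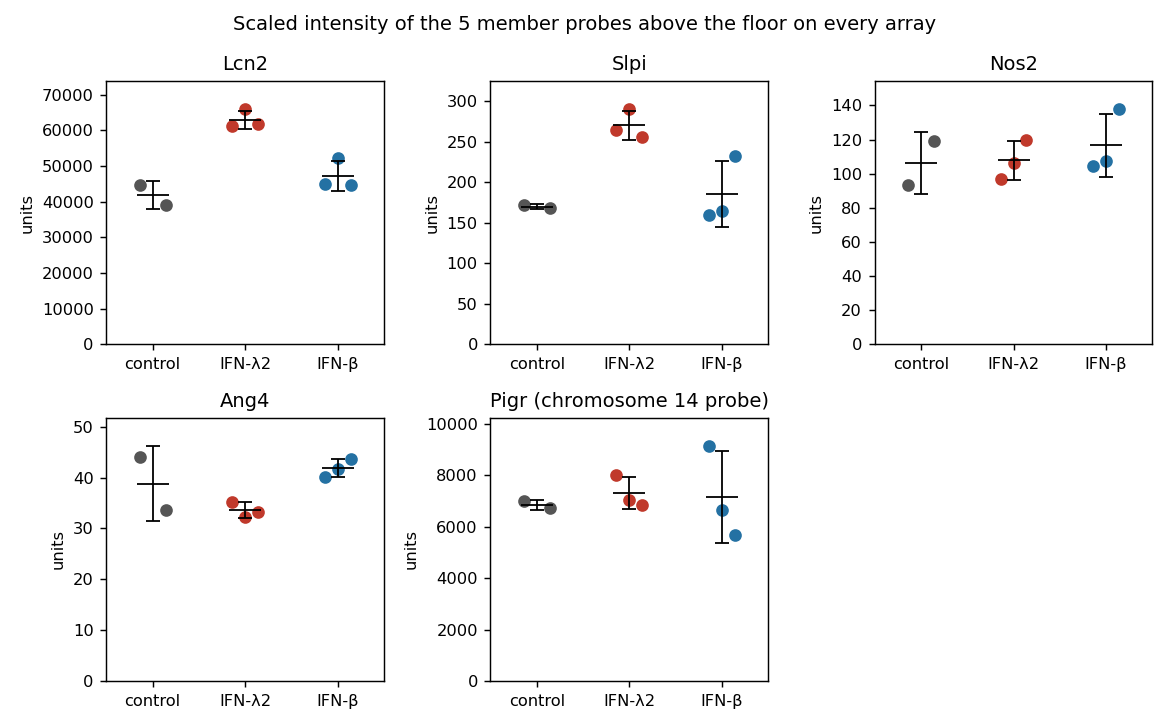
Scaled intensity (units, linear axis from 0) of the 5 member probes above the floor on every array, by group. Dots are single arrays, and black bars show the mean ± SD of 2 control, 3 IFN-λ2 and 3 IFN-β arrays. The IFN-λ2 arrays of Lcn2 (61227 to 65904 units) and Slpi (256 to 290.2 units) lie above all other arrays.

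Lcn2 and Slpi are secreted by neutrophils as well as by epithelium. The cells here were an epithelial line, and neutrophil markers are given to describe it. Of 9 neutrophil markers with a probe, 3 were well above background on all arrays (Csf3r, Ltf and Elane), and Mpo, Ngp and Cxcr2 were at the floor on all arrays. The summed units of the list were 29175 to 32728 in controls, 24352 to 26318 with IFN-λ2 and 25324 to 37867 with IFN-β, and Csf3r alone, at 22969 to 36566 units, made up most of each sum. Of the 5 neutrophil markers tested, 0 passed with IFN-λ2 by limma, where 10.1% of all probes tested were higher and 8.39% lower. At an unadjusted p under 0.05 there was 1, Elane, which was lower (log2 change -0.41), where 33.2% of all probes had one. Elane was called with a floor of 50 (adjusted p 0.0451).

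Nos2, the inducible nitric oxide synthase, gave 93.6 and 119 units in controls, 97.0, 106.5 and 120.0 units with IFN-λ2, and 105, 107.5 and 138 units with IFN-β. The 3 groups overlapped. The log2 changes were 0.02 with IFN-λ2 (95% confidence interval -0.37 to 0.42, adjusted p 0.938) and 0.13 with IFN-β (-0.26 to 0.53, adjusted p 0.811). A change of more than 0.53 in either direction lay outside both intervals. The probe is at chr11:78773567-78773626 on mm9 (plus strand).

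Ang4 gave 44.1 and 33.6 units in controls, 35.3, 32.2 and 33.1 units with IFN-λ2, and 40.1, 41.8 and 43.6 units with IFN-β. IFN-λ2 replicate 2 was not well above background for this probe, and the 7 other arrays were. The IFN-λ2 and IFN-β arrays did not overlap, as was so for 32.3% of all probes tested, and their log2 difference of -0.32 (SE 0.11) had an adjusted p of 0.119. Without either control array, or with these 2 groups fitted alone, the adjusted p was 0.0387 at the same difference. Against control the changes were -0.20 with IFN-λ2 (adjusted p 0.301) and 0.12 with IFN-β (adjusted p 0.754). The probe is at chr14:52384066-52384125 on mm9 (minus strand).

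The 2 Pigr probes did not read alike. The chromosome 14 probe gave 7005 and 6729.5 units in controls, 8017, 7026 and 6859 units with IFN-λ2, and 9149, 6648 and 5678 units with IFN-β. It was well above background on all 8 arrays, the groups overlapped, and the log2 changes were 0.09 with IFN-λ2 (95% confidence interval -0.37 to 0.54) and 0.03 with IFN-β (-0.42 to 0.49). The chromosome 1 probe was not well above background on any array. Before the floor it read 4.8 and 3.9 units in controls, 17.5, 8.4 and 14.1 units with IFN-λ2, and 5.1, 6.5 and 3.4 units with IFN-β. The 3 IFN-λ2 arrays were the highest of the 8, yet each lay under its own array's dimmest probe above background (18.5, 33.3 and 16.2 units), so that no Pigr change could be measured with this probe.

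Other purine-rich probes were looked at after the sequence of the second Pigr probe had been seen. Of 54 probes with at least 90% purines, 51 (94.4%) were well above background on all 8 arrays. Of all 39429 probes, 20267 (51.4%) were. Whether cross-hybridization contributed to the signal of the Pigr repeat probe was not tested.

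The other members stayed at or near the floor. Reg3b read 3.5 to 8.0 units over the 8 arrays before the floor, Reg3g 3.8 to 8.1 units and Duox2 3.5 to 7.6 units, each with its highest value on IFN-λ2 replicate 2. Median negative control features gave 3.3 to 8.1 units, the highest on that same array. Lyz1 was well above background on IFN-β replicate 1 alone, at 34.4 units, and read 9.9 to 16.9 units on the 7 other arrays. Lyz2 was well above background on IFN-λ2 replicate 1 alone, at 21.9 units, and read 4.2 to 8.4 units elsewhere. Neither lysozyme was raised on a second array of the same group, and Lyz1, which passed the filter through 2 arrays above 15 units, had changes of 0.06 with IFN-λ2 (adjusted p 0.928) and 0.40 with IFN-β (adjusted p 0.714).

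**Figure D2:**
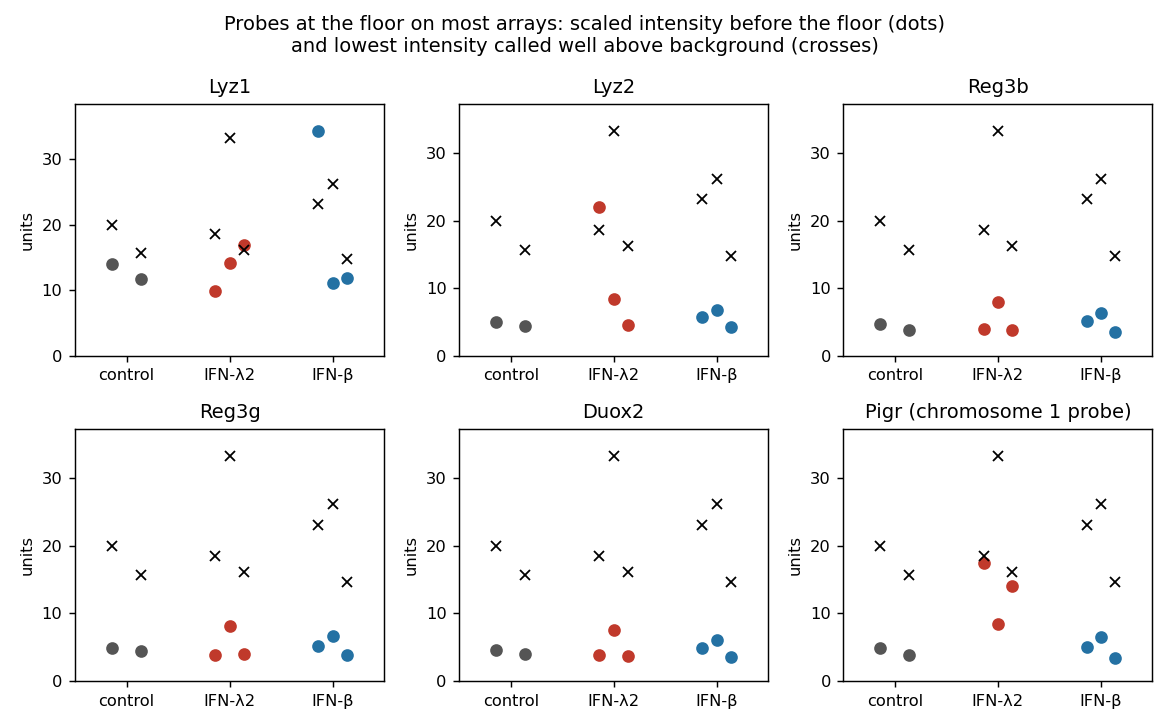
Scaled intensity before the floor (units, linear axis) of the 6 member probes at the floor on most arrays, by group. Dots are single arrays, and each cross is the dimmest signal that the scanner software called well above background on that array (14.7 to 33.3 units). Lyz1 on IFN-β replicate 1 (34.4 units) and Lyz2 on IFN-λ2 replicate 1 (21.9 units) lie above their crosses, as does Lyz1 on IFN-λ2 replicate 3 (16.9 units against 16.2), which was not called well above background, and no Reg3b, Reg3g, Duox2 or Pigr dot does.

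In all, 6 of the 11 member probes were tested. With IFN-λ2, 2 of the 6 were higher than control (Lcn2 and Slpi), where 10.1% of all probes tested were higher, and 0 were lower, where 8.39% were. The count at an unadjusted p under 0.05 was likewise 2 of the 6, where 33.2% of all probes tested had one. With IFN-β, 0 were higher and 0 lower by limma, against 1.42% and 0.211% of all probes, 0 had an unadjusted p under 0.05 (12.0% of all probes did), and a test of the 2 groups without moderation across probes, after Benjamini-Hochberg, also called 0. Between IFN-λ2 and IFN-β, 1 was higher (Lcn2), against 5.64% of all probes, and 0 were lower, against 5.56%, with 3 at an unadjusted p under 0.05 (Lcn2, Slpi and Ang4), as had 25.3% of all probes. The median log2 change of the 6 probes was 0.07 with IFN-λ2 and 0.13 with IFN-β, where the medians over all probes tested were 0.00 and 0.02. With so few probes, these counts describe the members and no more.

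**Figure D3:**
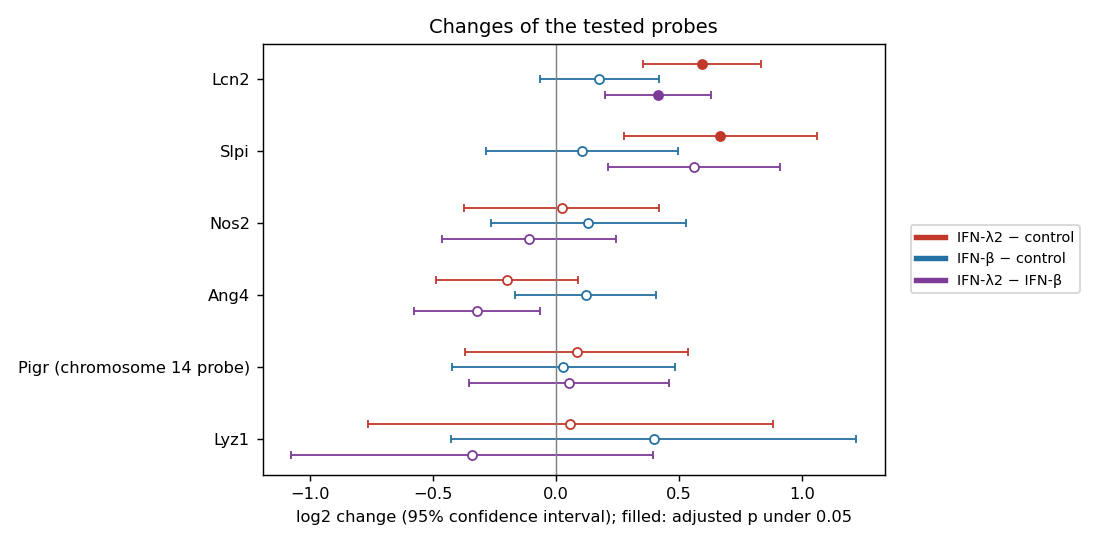
Log2 change with its 95% confidence interval for the 6 member probes tested, in the 3 comparisons named in the key. Filled dots have an adjusted p under 0.05. Lcn2 (0.59) and Slpi (0.67) are filled for IFN-λ2 against control, Lcn2 (0.42) is filled between the interferons, and no dot is filled for IFN-β against control.

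Since Lcn2 and Slpi were the members called with IFN-λ2, though not under every setting, the 250 bases before their RefSeq transcription starts (GRCm38.p6) are shown. The Lcn2 stretch is chr2:32387740-32387989 and the Slpi stretch is chr2:164356508-164356757, both on the minus strand.
Lcn2 promoter: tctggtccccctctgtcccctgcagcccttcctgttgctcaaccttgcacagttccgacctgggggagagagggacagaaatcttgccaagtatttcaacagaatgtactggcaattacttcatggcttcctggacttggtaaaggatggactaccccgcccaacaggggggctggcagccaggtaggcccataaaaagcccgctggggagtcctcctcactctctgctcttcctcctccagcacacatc
Slpi promoter: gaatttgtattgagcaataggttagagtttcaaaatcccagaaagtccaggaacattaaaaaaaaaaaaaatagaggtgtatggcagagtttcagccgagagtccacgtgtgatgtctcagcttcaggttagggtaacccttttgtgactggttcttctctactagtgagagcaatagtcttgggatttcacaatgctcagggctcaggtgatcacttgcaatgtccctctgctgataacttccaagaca
Letters for 3 motifs were searched on both strands: the core of the interferon-stimulated response element (GAAANNGAA), the gamma-activated site (TTCNNNGAA) and a core of the kappaB site (GGANTTTCC). These letters do not occur in the stretches of Lcn2 or Slpi, and no base is therefore in capitals. Among 27025 promoter stretches of this length, 7.16% held the first motif, 7.18% the second and 1.05% the third. Of the 9 members with a sequence in the RefSeq table, 1 held the first, 2 held the second and 0 held the third.

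The 3 matches lay in members without a called change, and 30 bases around each are shown with the match in capitals.
Lyz1, response element core, chr10:117293089-117293118, minus strand: taGAAACAGAAgtccttctccattcctaat
Reg3b, gamma-activated site, chr6:78370746-78370775, plus strand: agcctgttctTTCTTGGAAactctttgagt
Ang4, gamma-activated site, chr14:51773763-51773792, minus strand: actcattctcTTCCCTGAAaaaaatgtgtg
The matches begin 248, 129 and 192 bases before the start of Lyz1, Reg3b and Ang4. The promoter stretches of the gene pairs were related, with 79.4% identical positions between Lyz1 and Lyz2 and 68.4% between Reg3b and Reg3g, yet the match of Lyz1 was not found in Lyz2, nor that of Reg3b in Reg3g.

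The wider setting was read from 7 lists of other defence genes, in which 168 of 181 genes had a probe and 116 were tested on their brightest probe, while 40 were at the floor on all arrays. With IFN-λ2, 24 rose and 10 fell, where 10.1% of all probes tested were higher and 8.39% lower. With IFN-β, 5 rose and 0 fell, where 1.42% were higher and 0.211% lower. Between IFN-λ2 and IFN-β 16 were higher and 10 lower, where 5.64% and 5.56% of all probes were. The counts of each list below stand against these same shares. The calls with IFN-λ2 numbered 34 in all, and 21 with the replicate number as a block, 22 without control replicate 3 and 22 without IFN-λ2 replicate 1. Between the interferons the calls numbered 26, and 16 without IFN-λ2 replicate 1 or without IFN-β replicate 3.

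Among antimicrobial proteins and peptides, 18 of 38 genes with a probe were tested, 3 rose with IFN-λ2 and 0 fell. With IFN-β, 0 passed by limma and 3 had an unadjusted p under 0.05, as had 12.0% of all probes tested. Mmp7, a matrix metalloproteinase that activates mouse α-defensins, was at 359 and 511 units in controls, at 4504, 6533 and 4829 units with IFN-λ2 and at 402 to 423 units with IFN-β. Its change with IFN-λ2 was 3.61 (SE 0.20, 12.2-fold), and with IFN-β it was -0.04 (95% confidence interval -0.51 to 0.42). Pglyrp1, a peptidoglycan recognition protein, was at 93.2 and 85.6 units in controls, 419, 357 and 343 units with IFN-λ2, and 116 to 130.4 units with IFN-β. It rose by 2.06 on the log2 scale with IFN-λ2 (SE 0.11), and the IFN-β change of 0.45 had an adjusted p of 0.132.

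Ccl28, a chemokine that attracts IgA-secreting cells and is itself antimicrobial, was at 107 and 106 units in controls. It was at 454, 416 and 371 units with IFN-λ2 and at 280.2, 138 and 163 units with IFN-β. It rose by 1.95 with IFN-λ2 (adjusted p 0.00442). The difference between the interferons was 1.16 (adjusted p 0.0284), and leaving out 1 array raised its adjusted p above 0.05 for each of the 8 arrays except IFN-β replicate 1, to at most 0.106 with a log2 difference of 1.09 without IFN-λ2 replicate 1. Among the Paneth cell genes, 7 of 17 were tested, Mmp7 was the one that rose with IFN-λ2, and 0 fell. That 1 call became 2 without control replicate 2 and 3 without control replicate 3.

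Of the secreted protease inhibitors, the family to which Slpi belongs by function, 11 of 19 were tested and 1 rose with either interferon (2 with IFN-λ2 after normexp). That gene, Spink2, was at 35.0 and 32.5 units in controls, 323, 302 and 271 units with IFN-λ2, and 149.8, 149 and 145 units with IFN-β. Each group was apart from the others, where 26.3% to 49.6% of all probes tested did not overlap, depending on the comparison. Spink2 rose by 3.14 after IFN-λ2 and by 2.13 after IFN-β on the log2 scale (SE 0.09 for both). The difference between the interferons was 1.01 (adjusted p 0.00079). 

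Around Lcn2, 13 of 15 genes of iron withholding and lipocalin handling were tested, 4 rose with IFN-λ2 and 3 fell. These 7 calls became 3 with the replicate block or with normexp background correction, 3 without control replicate 2, IFN-λ2 replicate 2 or IFN-λ2 replicate 3, and 2 without control replicate 3 or IFN-λ2 replicate 1. With IFN-β 0 passed by limma and 2 had an unadjusted p under 0.05. Bdh2, an enzyme linked to a mammalian siderophore, fell from 2741 and 2594 units to 1146, 1123 and 1131 units with IFN-λ2 and was at 2016 to 2417 units with IFN-β. Its change with IFN-λ2 was -1.23 (SE 0.09), and that with IFN-β was -0.28 (adjusted p 0.267). 

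Around Pigr, all 14 genes of immunoglobulin transport and IgA recruitment that had a probe were tested, of which 2 rose and 2 fell with IFN-λ2, and 0 passed with IFN-β by limma, with 1 at an unadjusted p under 0.05. The 4 calls with IFN-λ2 became 2 with the replicate block, with normexp, without either control array and without IFN-λ2 replicate 1 or 3. Tslp, an epithelial cytokine, was at 61.3 and 49.9 units in controls, 24.9, 27.2 and 31.1 units with IFN-λ2 (2 of the 3 well above background) and 69.1, 51.3 and 62.0 units with IFN-β. Tslp fell by 1.002 on the log2 scale with IFN-λ2 (adjusted p 0.00742), and after normexp background correction its change was -0.07 (adjusted p 0.811), and with a floor of 50 units it was -0.15 (adjusted p 0.454). Jchain, the joining chain of polymeric IgA, was at the floor in both controls and at 15 to 20.8 units elsewhere, with 1 array well above background. It was not called, except with IFN-λ2 when IFN-λ2 replicate 2, at the floor, was left out (adjusted p 0.0162, log2 change 0.46 against 0.31).

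Around Nos2 and Duox2, 20 of 33 genes of reactive oxygen and nitric oxide production were tested, 5 rose with IFN-λ2 and 1 fell, and 1 rose with IFN-β. Noxo1, the organizer subunit of the epithelial NADPH oxidase, was at 1274 and 1207 units in controls, 3130.4, 3075 and 3300.3 units with IFN-λ2 and 2136, 2074 and 2406 units with IFN-β. The groups did not overlap. Of all probes tested, 49.6% did not overlap between IFN-λ2 and control, 26.3% between IFN-β and control and 32.3% between the interferons. Noxo1 rose by 1.35 after IFN-λ2 and by 0.83 after IFN-β on the log2 scale (SE 0.09 for both). The difference between the interferons was 0.53 (adjusted p 0.00781). With control and IFN-β fitted alone, the change with IFN-β had an adjusted p of 0.0550. Duoxa2, the maturation factor that Duox2 needs to reach the surface, was at the floor on all 8 arrays, as Duox2 was. So was Slc7a2, an arginine transporter.

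The enzymes that supply nitric oxide synthase were measured well. Ass1, which regenerates arginine, was at 3041 and 3689 units in controls, 5332, 5748 and 5054 units with IFN-λ2 and 3836, 3291 and 3249.7 units with IFN-β. It rose by 0.68 with IFN-λ2 (adjusted p 0.0102, and 0.0540 without control replicate 2 at a log2 change of 0.54) and exceeded IFN-β by 0.64 (adjusted p 0.0122, and 0.0507 without IFN-β replicate 3 at 0.60). Gch1, which makes the cofactor of the synthase, changed by 0.36 with IFN-λ2 on its brightest probe (adjusted p 0.0279, and 0.0586 with the replicate block). That call was also lost with normexp (log2 change 0.29, adjusted p 0.133) and without any 1 of the IFN-λ2 arrays (0.34 to 0.37, adjusted p 0.0590 to 0.0792). Without control replicate 3 the log2 change was 0.29. The brightest Gch1 probe exceeded IFN-β by 0.43 (adjusted p 0.0138, and 0.0508 to 0.0548 with normexp or without IFN-λ2 replicate 1 or 3). A second Gch1 probe passed at 0.79 with IFN-λ2 (limma adjusted p 0.00097) and at 0.67 against IFN-β (adjusted p 0.0021). A second Ass1 probe passed at 0.58 with IFN-λ2 (adjusted p 0.0288) and at 0.64 against IFN-β (adjusted p 0.0198).

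Of 35 receptors and regulators of the defence genes, 34 were tested, 9 rose with IFN-λ2 and 4 fell, and 3 rose with IFN-β and 0 fell. With IFN-β, 14 of the 34 had an unadjusted p under 0.05 by limma, where 12.0% of all probes tested had one. The 13 calls with IFN-λ2 became 8 with the replicate block or with normexp, and 7 without control replicate 3. Irf1, a transcription factor, rose by 1.14 after IFN-λ2 and by 0.86 after IFN-β on its brightest probe (log2 scale). A second Irf1 probe was not called, at 0.89 with IFN-λ2 (adjusted p 0.0562) and 0.95 with IFN-β (adjusted p 0.195). That probe was dim, with a mean log2 level of 4.24 in controls, 5.13 with IFN-λ2 and 5.19 with IFN-β. On the brightest probe these were 13.5, 14.6 and 14.3. Tlr3, the receptor for double-stranded RNA, rose by 1.27 after IFN-λ2 and by 1.18 after IFN-β. The IFN-β value of Tlr3 had an adjusted p of 0.0346, and 0.151 with the replicate block. It was lost without any 1 of the arrays of the control or IFN-β groups, or IFN-λ2 replicate 1 (0.0846 to 0.200, at changes of 1.07 to 1.30).

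Il22ra1, the receptor chain for interleukin-22, which is known to induce Reg3 genes and Lcn2, was at 21.7 and 28.9 units in controls and at 60.6, 49.2 and 43.0 units with IFN-λ2. With IFN-β it was at 23.7, 26.6 and 29.2 units. It was well above background on all 3 IFN-λ2 arrays, but on 1 of the 2 controls and 1 of the 3 IFN-β arrays. Its change with IFN-λ2 was 1.01 (adjusted p 0.0117), 0.0514 with the replicate block and 0.0652 without control replicate 2 (log2 change 0.80), and the difference from IFN-β was 0.93 (adjusted p 0.0145, and 0.0521 with the block). Hnf4a, an epithelial transcription factor, fell from 185 and 141 units to 31.0, 23.2 and 25.8 units with IFN-λ2 (2 of the 3 well above background) and was at 128 to 138 units with IFN-β. Its change with IFN-λ2 was -2.61 (SE 0.16) and with IFN-β -0.30 (adjusted p 0.524).

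**Figure D4:**
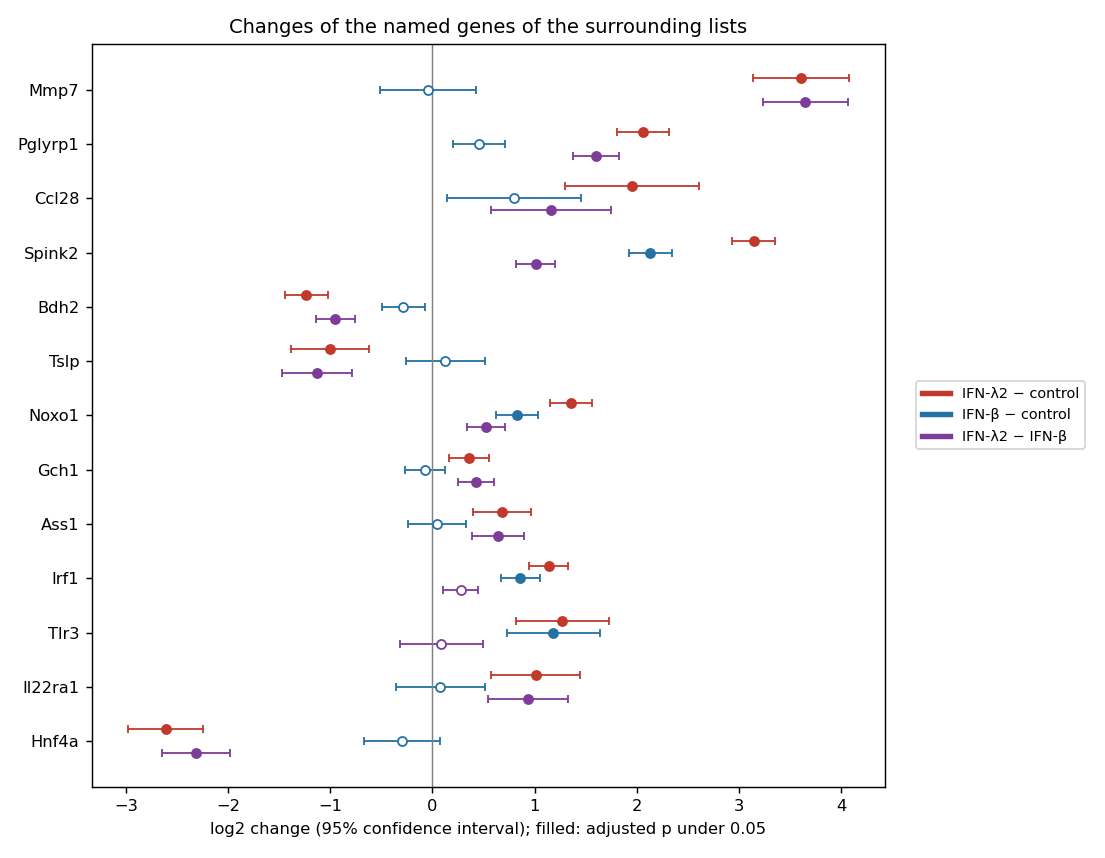
Log2 change with its 95% confidence interval for 13 named genes of the surrounding lists, in the 3 comparisons named in the key. Filled dots have an adjusted p under 0.05. Mmp7 (3.61) and Spink2 (3.14) have the highest values for IFN-λ2 against control, Hnf4a (-2.61) the lowest.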

How the data were processed

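Gene expression was measured on 8 one-colour Agilent whole mouse genome arrays. The authors deposited the intensity of every feature as Feature Extraction 10.7.3.1 wrote it, with background already subtracted, and processed intensities (linear scale) in 1 table, which equals the values used here times a constant per array for nearly all probes above the floor. The methods name RNeasy columns for RNA, the labels Trizol.

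Control features were left out. Copies of a probe were excluded if flagged or marked as outliers, beyond 1.42 interquartile ranges, or with a pixel coefficient of variation over 0.5. Each probe's geometric mean was put on a scale with the 75th percentile at 1500, raised to 15 where lower, and logged (base 2). The test took the 26009 of 39429 probes that exceeded 15 units on 2 or more arrays, with limma 3.58.1 in R 4.3.3, fitting 3 group means with empirical Bayes variance, and Benjamini-Hochberg adjustment at 0.05. Tables used Python 3.11.15, numpy 2.4.6 and pandas 2.3.3. The fit was tested on simulated data.

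List genes were read on their brightest probe and named where called with at least a 2-fold change and well above background on every array of the brighter group, at most 6 per list. Duoxa2, Jchain, Gch1, Slc7a2, Ass1 and Usp18 were named whatever their values. A gene that the rule names is not reported here. Members and lists were chosen with earlier results of these data known. Gene symbols and promoter sequences are from RefSeq (GRCm38.p6, promoters for 9 of 10 members), and probe coordinates are those of the array files (mm9).

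Replicate numbers coincide with slides. Deviations from the group means correlated between same-numbered IFN-λ2 and IFN-β arrays (0.18, 0.28 and 0.32), so that the numbers pair these, and less between control and IFN-λ2 (0.02 and 0.00) or control and IFN-β (0.10 and -0.05). The median absolute log2 difference between replicates was 0.09 to 0.16. The number of arrays limits the precision. Alternatives were other background corrections, scalings, floors and filters, the deposited table, a replicate block, leaving out each array and other tests.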

Additional observations from a re-analysis of the deposited data

How the results depend on the processing

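The count of member probes called with IFN-λ2 (2) was 1 without a filter on dim probes, 1 with the replicate block, 1 by a test of the 2 groups without moderation across probes after Benjamini-Hochberg, 0 by that test at an unadjusted p of 0.001 and 2-fold (limits that the methods give for a comparison of 2 groups, with no test named), and 0 when a 2-fold change was required; leaving out 1 array gave 0 to 2. Between the interferons (1), it was 2 with a floor of 50, 2 with a filter on the above-background flag, 2 with only the 2 groups compared and 2 with a variance trend. It was 0 with normexp, 0 without the filter, 0 by both forms of the unmoderated test, 0 with 2-fold, and 0 to 2 on leaving out 1 array. With IFN-β it was 0 under every alternative run. The genes called in the lists numbered 21 with the replicate block with IFN-λ2, and with 2-fold 12, 3 and 7 with IFN-λ2, IFN-β and between them; leaving out 1 array gave 22 to 32 with IFN-λ2 and 16 to 23 between the interferons.

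Lcn2 with IFN-λ2 changed by 0.44 to 0.69 over 19 alternatives, with adjusted p 0.0028 to 0.0551, and by 0.50 to 0.69 on leaving out 1 array. Between the interferons it changed by 0.42 with normexp (adjusted p 0.107), 0.42 without the filter (0.0552) and 0.38 to 0.49 on leaving out 1 array. Slpi with IFN-λ2 changed by 0.67 without the filter (adjusted p 0.0828), 0.72 with the replicate block and 0.62 to 0.71 on leaving out 1 array. Between the interferons Slpi passed the threshold at 0.56 with a floor of 50, with a filter on the above-background flag and with a variance trend (adjusted p 0.0305 to 0.042), and ranged from 0.46 to 0.74 on leaving out 1 array. Those 2 called genes kept their direction under every alternative run for IFN-λ2 against either other group.

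Signs turned in members that were not called. With the replicate block, IFN-λ2 against control was -0.13 for Lyz1 and -0.045 for the second Pigr probe, and IFN-β against control was -0.10 for that probe, which was -0.028 with quantile normalization. With normexp, Ang4 was 0.16 with IFN-λ2 and 0.16 between the interferons, where Lyz1 was 0.34 and Nos2 0.14. On leaving out 1 array, the ranges that crossed 0 were -0.15 to 0.20 for Nos2 with IFN-λ2; with IFN-β, -0.075 to 0.32 for Ang4, -0.066 to 0.20 for Slpi, -0.16 to 0.18 for the second Pigr probe and -0.042 to 0.31 for Nos2; between the interferons, -0.54 to 0.058 for Lyz1, -0.10 to 0.25 for the second Pigr probe and -0.19 to 0.018 for Nos2. The cause was not tested. Signal over background limits Lyz1, Lyz2, Reg3b, Reg3g, Duox2 and the chromosome 1 Pigr probe.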

Other observations

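Of 11 markers of absorptive enterocytes, 6 were tested and 4 rose with IFN-λ2 (limma, adjusted p under 0.05), where 10.1% of all probes tested were higher. The other 2 were not called, at -0.21 for Anpep, a brush border peptidase, and -0.14 for Vil1, villin. Lct, the lactase gene, was at 65.4 and 51.7 units in controls and at 134 to 162 units with IFN-λ2, a log2 change of 1.38. Krt20, a keratin of mature enterocytes, rose by 0.73 and Fabp2, a fatty acid binding protein, by 0.65. Sis, sucrase-isomaltase, was at 25.8 and 22.5 units in controls, 1 of them well above background, and at 36.5, 67.6 and 67.4 units with IFN-λ2, a change of 1.19 with an adjusted p of 0.0493. That call was lost under 11 alternatives: with quantile normalization, no floor, no filter on dim probes, a floor of 50 (log2 change 0.29), these 2 groups alone, and without either control, IFN-λ2 replicate 2 or 3, or IFN-β replicate 2 or 3 (adjusted p 0.0512 to 0.199 in all). With IFN-β, 0 of the 6 passed by limma and 4 had an unadjusted p under 0.05, as had 12.0% of all probes tested, with Lct, Fabp2 and Krt20 higher and Vil1 lower (-0.43). With the replicate block Sis passed (log2 change 0.88, adjusted p 0.0431, against 0.534 without it). Alpi, Apoa1, Apoa4 and Slc5a1 were at or near the floor. Of 8 fibroblast markers, 4 were tested and 1 was lower with IFN-λ2, where 8.39% of all probes were. That gene, Vim, an intermediate filament of mesenchymal cells, was at 11951 and 15109 units in controls and at 6689.9 to 8480 units with IFN-λ2, a change of -0.87. Col1a2 (0.26), Col1a1 (-0.57) and Dcn (-0.43) were not called. These genes were named after their values were seen.

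Of 13 macrophage and monocyte markers with a probe, 6 were well above background on all 8 arrays (Csf1r, Itgam, Cd14, Cd68, Fcgr1 and Lst1). Cd163, Mrc1 and Tyrobp were at the floor on all. Of 8 lymphocyte markers, Cd3e and Nkg7 were well above background on all arrays, and Cd3d, Cd2 and Ms4a1 were at the floor on all. Cd79a, a B cell gene, was at 203 units on IFN-β replicate 2 and at 15 to 18.1 units elsewhere, and was well above background on that array and on 1 IFN-λ2 array. Ptprc, the leukocyte gene CD45, was well above background on IFN-β replicates 1 and 3 (43.5 and 36.6 units). Its change with IFN-β was not called (limma, log2 change 0.93, adjusted p 0.441), but was without IFN-β replicate 2 (1.40, adjusted p 0.0017). Of the 10 macrophage and monocyte markers tested, 0 were higher with IFN-λ2 and 1 was lower, where 8.39% of all probes were. That gene, Marco, was dim (20.0 to 26.4 units with IFN-λ2), and with normexp its change was 0.08 (adjusted p 0.765) against -0.49.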
